A study of Mus musculus and synthetic construct with 9 samples.

Results

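Of the 6628 SNPs whose reference and alternate alleles were both assayed as human sequences in MIN6 cells, 58 had weak reporter activity in DMSO and more activity in thapsigargin (Tg). Each SNP was represented by a pair of 200-base sequences that differed at the SNP, so these elements account for 116 of 13628 sequences. Small insertions and deletions in the library are counted as SNPs here. Members were chosen by their own counts in DMSO, Tg and the plasmid input, and the difference between Tg and DMSO is therefore described here and not tested. For every sequence, activity was the log2 ratio of its summed RNA counts to its summed plasmid counts, minus the median of that ratio over the sequences with at least 500 plasmid counts, so that an activity of 0 is that of the middle sequence of the library. An element was a member when both alleles had at least 500 plasmid counts over 5 libraries (6180 SNPs), the mean DMSO activity of its alleles was under 1 (6029 SNPs), and the mean difference of Tg minus DMSO, called the gain below, was at least 0.3. The 58 members were 0.939% of the 6180 SNPs, a share that the thresholds themselves set.

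The host cells, MIN6, are a line of insulin-secreting mouse β cells that came from an insulinoma, and the human sequences were carried on transfected plasmids, upstream of a minimal promoter and GFP, rather than in their chromosomal place. Each of the 3 conditions had 5 RNA libraries from transfections on separate days. Cells in DMSO received medium with 0.025% DMSO at 6 h after transfection, cells in Tg received 250 nM Tg in the same amount of DMSO at that time, and both were collected at 30 h. Cells in standard culture kept their medium and were also collected at 30 h. Standard culture was transfected with a first batch of the plasmid library and amplified with fewer PCR cycles, whereas DMSO and Tg shared a second batch, so that a difference between standard culture and either of the other conditions cannot be told apart from the batch. Libraries held 19851799 to 44899256 RNA counts and 23009482 to 36129587 plasmid counts. Because reads had no molecular identifiers, a count is a read and not a molecule.

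Thapsigargin inhibits the pump that moves calcium into the endoplasmic reticulum (ER), and the fall in ER calcium impairs protein folding there. The unfolded protein response that follows runs through the sensors PERK, IRE1 and ATF6 and raises transcription factors such as ATF4, CHOP, spliced XBP1 and cleaved ATF6. β cells, which fold large amounts of proinsulin, are known to rely on this response. A short sequence in a reporter assay can be close to silent in unstressed cells and still carry sites for factors that appear or become active under stress.

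Sequence around the SNP is shown for 1 member, rs12794698, on the study's list of 220 type 2 diabetes (T2D) SNPs with an allelic difference in this assay, because the base change can then be seen beside the values. The stretch is chr11:45871845-45871869 on the + strand of hg19, and the capital marks the SNP at 45871861. The study's tables place it at the CRY2 locus, named for a repressor of the circadian clock. Whether the SNP lies in an exon or an intron was not given in the sources used here.
rs12794698 reference: cactgtgcccggccttGggcattaa
rs12794698 alternate: cactgtgcccggccttAggcattaa
The change was G-to-A. The reference allele gained 0.33 and the alternate 0.39, and both were active in standard culture.

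The gains were modest for most members. Their median was 0.41 on the log2 scale (1.33-fold), 17 of 58 had a gain of 0.5 or more, and 2 had a gain of 1 or more. The median activity was 0.057 in DMSO (range -0.44 to 0.95) and 0.56 in Tg (range -0.084 to 2.33). Weak elements that did not gain, 5971 SNPs, had medians of -0.0068 in DMSO and -0.011 in Tg. In Tg 15 members had an activity of 1 or more, the level that the rule put out of reach in DMSO. With both alleles averaged, the lowest Tg library exceeded the highest DMSO library in 35 of 58 members, against 3.56% of the 6180 SNPs, and nothing is read from that count because the rule used these libraries. Gains were fewer than losses among weak elements, since 198 of 6029 had a Tg minus DMSO difference of -0.3 or below.

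The element of rs175874 had the largest gain, 1.59 (3.01-fold). The 5 DMSO libraries gave 0.84, 0.98, 0.67, 0.50 and 0.64, the 5 Tg libraries 2.62, 2.26, 1.97, 2.32 and 2.40, and the 5 libraries of standard culture 0.38, 0.39, 0.17, 0.25 and 0.11. All 5 Tg values stood above the DMSO values, and all 5 DMSO values stood above those of standard culture. Reference and alternate alleles moved alike, with gains of 1.52 and 1.66. In standard culture, which the rule did not use, both alleles had more RNA than plasmid, by 0.32 (SE 0.053, adjusted p = 0.00047) for the reference and 0.22 (SE 0.052, adjusted p = 0.0032) for the alternate on the log2 scale in edgeR's test. The call of the alternate allele was lost in each of 7 settings with a library left out (RNA library 3, 4 or 5, or plasmid library 2, 3, 4 or 5), with adjusted p = 0.011 to 0.02. Scaled by total counts in place of TMM factors, which lowered the median of all sequences to -0.82, the alleles had -0.50 and -0.59.

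The second largest gain, 1.11 (2.16-fold), was that of rs7124060, a SNP on the study's list of 390 SNPs that are linked to islet chromatin accessibility (caQTL) and had an allelic difference in this assay. The 5 DMSO libraries gave 0.071, 0.086, 0.088, -0.018 and -0.019, the 5 Tg libraries 1.46, 1.07, 0.87, 1.07 and 1.27, and the 5 libraries of standard culture -0.018, 0.12, 0.034, 0.025 and 0.018. DMSO and standard culture overlapped at the level of the middle sequence of the library, and only the Tg libraries stood apart. Neither allele was called active in standard culture. The activity in Tg was 1.13 for the reference and 1.21 for the alternate allele.

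The next elements by gain had some activity in DMSO already. For rs62278697 the gain was 0.85. The 5 DMSO libraries gave 0.45, 0.42, 0.40, 0.47 and 0.40, the 5 Tg libraries 1.59, 1.27, 0.99, 1.30 and 1.27, and the 5 libraries of standard culture 0.16, 0.13, 0.13, 0.075 and 0.047. The 3 groups of libraries did not overlap and were ordered standard culture, DMSO, Tg. The alternate allele was the more active one in both treatments, with 1.51 against 1.08 in Tg and 0.59 against 0.30 in DMSO, while in standard culture the alleles had 0.13 and 0.10. The element of rs2832265 lies in an intron of the noncoding RNA gene LINC00189 at chr21:30590286 (hg19) and had a gain of 0.81. Here the DMSO libraries gave 0.45, 0.72, 0.66, 0.64 and 0.58, the 5 Tg libraries 1.63, 1.42, 1.12, 1.38 and 1.50, and the 5 libraries of standard culture 0.34, 0.26, 0.18, 0.23 and 0.11. Its groups were ordered in the same way and did not overlap.

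At chr6:31129616, rs2073721 is placed by the study's tables at the locus of POU5F1, which encodes the pluripotency factor OCT4, and no islet ATAC-seq peak was marked there. Its gain was 0.80. Its DMSO libraries gave 0.17, 0.20, 0.39, 0.31 and 0.34, the 5 Tg libraries 1.39, 1.11, 0.81, 1.06 and 1.08, and the 5 libraries of standard culture 0.12, 0.023, 0.038, 0.034 and -0.0015. Both alleles gained 0.80, and neither was called active in standard culture. The intergenic SNP rs11832983 at chr12:39622691, between CPNE8, a member of the calcium-dependent copine family, and the kinesin gene KIF21A, is also on the caQTL list. Its gain was 0.79, from 0.34 ± 0.051 in DMSO to 1.13 ± 0.15 in Tg (mean ± SD, n = 5), against 0.066 ± 0.049 in standard culture. The reference allele gained 0.96 and the alternate 0.62. In the 5 Tg libraries the reference allele had 1.59, 1.29, 1.04, 1.33 and 1.32 and the alternate 1.04, 0.89, 0.77, 0.99 and 1.03, without overlap between the alleles, whereas in DMSO the reference had 0.35, 0.37, 0.31, 0.36 and 0.36 and the alternate 0.39, 0.43, 0.22, 0.32 and 0.27, which overlapped.

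The other members among the 12 largest gains were rs10508931 (chr10:52353955), rs73409011, rs111530243 (chr1:236635982), rs3111008, rs223829 and rs889904. The gain of rs10508931 was 0.76, with Tg libraries from 0.91 to 1.36, DMSO from 0.28 to 0.43 and standard culture from 0.017 to 0.15. The third member on the caQTL list, rs73409011, gained 0.71, with Tg from 1.08 to 1.32, DMSO from 0.37 to 0.52 and standard culture from 0.32 to 0.40. For rs111530243 the gain was 0.69, with Tg from 0.69 to 1.13 and DMSO from 0.065 to 0.28. What these 3 share with the elements above is a clear space between the lowest Tg and the highest DMSO library. The gain of rs3111008 was 0.67, equal in both alleles to 2 decimals, with Tg from 0.69 to 0.99 and DMSO from 0.038 to 0.22. For rs889904 the gain was 0.59, from DMSO libraries between -0.12 and -0.0092 to Tg libraries between 0.39 and 0.64. Its alternate allele was 1 of the 6 member sequences called below plasmid in standard culture, and the element went from below the middle of the library to above it in Tg. Across the 12 largest gains, Tg library 1 held the highest Tg value in 11 and Tg library 3 the lowest in 9. Of the 58 members, 52 passed without Tg library 1, and 52, 52, 54 and 51 passed without Tg library 2, 3, 4 and 5.

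Apart from rs7124060, rs3111008, rs889904 and rs7163757, 5 more of the deeper members were close to the middle of the library in both DMSO and standard culture and stood above it in Tg. They were rs6594529, rs956708 (chr11:60599421), rs6792687, rs7970677 and rs2360240, with gains of 0.59, 0.59, 0.53, 0.45 and 0.34. Their DMSO activity was -0.12, -0.059, -0.076, 0.12 and -0.068, their activity in standard culture -0.019, 0.0073, -0.056, 0.0057 and -0.022, and their Tg activity 0.47, 0.53, 0.46, 0.57 and 0.28. In each of the 5 the Tg libraries overlapped neither those of DMSO nor those of standard culture. Neither allele of any of them was called active in standard culture, and the alternate allele of rs6792687 was called below plasmid. For rs6792687 the DMSO libraries ran from -0.17 to 0.0050, those of standard culture from -0.091 to -0.027 and those of Tg from 0.37 to 0.57. Another 2, rs497556 (chr1:244505272) and rs1114164, had 0.049 and 0.045 in standard culture, 0.30 and 0.28 in DMSO and 0.79 and 0.71 in Tg, with each step free of overlap.

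Shallow and deeply measured members differed in where their values lay. The smaller of both alleles' plasmid sums had a first quartile of 5686 counts over the 6180 SNPs, and 26 of the 58 members lay below it while 32 lay above. The 32 deeper members had a median gain of 0.46, and their alleles differed in gain by a median of 0.072. The 26 shallow members had a median gain of 0.39, with a median difference of 0.21 between alleles. Tg libraries lay wholly above DMSO in 29 of the deeper and 6 of the shallow members. In DMSO 21 of the shallow members had an activity under 0, against 5 of the deeper ones, and in 21 of the shallow members DMSO was below standard culture. Most shallow members were thus elements whose DMSO value was low and whose Tg value was near that of the middle sequence, with a median Tg activity of 0.12 against 0.85 in the deeper members. Among weak elements below that quartile, 26 of 1499 gained and 76 lost 0.3 or more, and above it 32 of 4530 gained and 122 lost as much.

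The shallowest member was rs223829, with 502 plasmid counts for the reference and 590 for the alternate allele, and it ranked among the 12 largest gains at 0.64. The 5 DMSO libraries gave -0.36, -1.24, -0.44, -0.40 and -0.45, the 5 Tg libraries 0.55, 0.37, 0.15, -0.076 and 0.026, and the 5 libraries of standard culture 0.34, 0.25, 0.097, 0.11 and 0.30. The lowest DMSO value, from library 2, stood far below the other 4, and the Tg libraries overlapped those of standard culture. With a library left out in turn (5 each of DMSO, Tg and plasmid), 34 of the 58 members passed the rule in each of the 15 settings, 24 of which were among the 32 deeper members. Of the 58, 37 passed in each of both labelled runs taken alone, where the plasmid minimum was applied to the counts of 1 run. Of the other 21, 10 had a gain of at least 0.3 in both runs.

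Of the other shallow members, rs1018730 (chr1:155910830) had Tg values free of overlap with both other groups. Its DMSO libraries gave -0.39, -0.45, -0.19, -0.41 and -0.32, the 5 Tg libraries 0.32, 0.24, 0.037, 0.36 and 0.12, and the 5 libraries of standard culture -0.14, 0.031, -0.027, 0.025 and -0.042. Among these DMSO was lowest, and standard culture lay between. By contrast the 5 members rs9534876, rs73704836, rs2068781 (chr1:182346234), rs17195832 (chr2:227426895, intergenic between LOC646736 and MIR5702) and rs3753563 (chr1:174923346) had DMSO activities of -0.089, -0.36, -0.40, -0.045 and 0.057 and Tg activities of 0.40, 0.065, 0.024, 0.35 and 0.41. Their activities in standard culture were -0.058, -0.16, -0.012, -0.063 and 0.00093. In each of the 5 the Tg libraries overlapped those of standard culture, and in all but rs73704836 they overlapped those of DMSO. For rs73704836 the lowest Tg library, at -0.28, stood just above the highest DMSO library, at -0.31. For rs3753563 the Tg libraries ran from -0.72 to 0.81 and enclosed the DMSO range of -0.25 to 0.32. The intergenic SNP rs2365560 at chr2:31506545, between EHD3, an endocytic trafficking gene, and the xanthine dehydrogenase gene XDH, had 0.29, 0.42, 0.60, 0.58 and 0.30 in DMSO, 0.76, 0.65, 0.64, 0.90 and 0.88 in Tg and 0.060 to 0.16 in standard culture. It was the 1 shallow member in which DMSO also exceeded standard culture in every library.

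The thresholds did not fall at gaps in the data. Just inside the gain threshold were rs4771189, rs6717858 and rs2332541 with gains of 0.308, 0.310 and 0.311, and just outside were rs4761380, rs13012870 and rs10457654 with 0.297, 0.294 and 0.293. Just inside the limit on DMSO activity were rs7597825, rs12794698 and rs12569872 with 0.95, 0.89 and 0.89. Just outside it were rs275856, rs112719228 and rs12649623, whose DMSO activity was 1.04, 1.10 and 1.15 and whose gains were 0.418, 0.541 and 0.302. In all, 26 of the 151 SNPs with a DMSO activity of 1 or more had a gain of 0.3 or more and are not members. Among the 6029 weak elements, 58 had such a gain, so it was not particular to weak elements. The members with the fewest plasmid counts in an allele were rs223829, rs13117737 and rs75403319 with 502, 516 and 542, and just below the minimum were rs1319467, rs7649799 and rs12788548 with 497, 497 and 461. Among the 448 SNPs below the minimum, 72 met both other conditions.

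Standard culture was the condition that the rule did not read. The 58 members had a median activity of 0.048 there (-0.34 to 0.95), beside -0.0046 of weak elements that did not gain and their own 0.057 in DMSO. When RNA was set against plasmid with edgeR (quasi-likelihood, FDR of 1%), 39 of the 116 member sequences were active, with more RNA than plasmid, against 18.6% of all 13430 sequences tested. Another 6 had less RNA than plasmid, against 9.78% of all, and 71 were not called either way. At least 1 allele was active in 20 of 58 members, against 23.2% of the 6515 SNPs tested and 1326 of the 5971 weak elements that did not gain. Both alleles were active in 19 of those 20. Scaled by total counts, the median of all sequences moved to -0.82, and the calls became 4 member sequences above plasmid and 106 below. Of the shallow members, 2 had an active allele, against 18 of the 32 deeper ones. Calls depend on the number of counts, and the share among all SNPs of like depth was not computed. Nothing is therefore read from this difference.

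Tg activity was set beside standard culture as a further description, across the difference in plasmid batch. In 31 of 58 members every Tg library exceeded every library of standard culture, against 4.06% of the 6029 weak elements. The Tg minus standard difference was 0.3 or more in 34 members, against 1.29% of weak elements, and its median was 0.39. The rule chose these elements for their Tg values, so that both counts were bound to exceed their background and nothing is read from them. Of the 31, 28 were deeper members and 3 shallow, namely rs1018730, rs9291296 and rs2365560. DMSO exceeded standard culture in every library in 14 members, against 11.3% of weak elements, and lay below it in every library in 8, against 6.42%. The rule read the DMSO counts too, and the plasmid batches differ, so nothing is read from these counts either. Of those 14, 13 were deeper members. They included rs175874, rs62278697, rs2832265, rs2073721, rs11832983 and rs10508931 among the largest gains, and also rs1462149, rs2084419 and rs8182587, whose standard culture activity of 0.29, 0.28 and 0.45 stood beside 0.81, 0.87 and 0.83 in DMSO and 1.27, 1.23 and 1.18 in Tg. The last of the 13 by gain, rs7931298 (chr11:57045815), had 0.74 in Tg, 0.43 in DMSO and 0.15 in standard culture. In rs2084419, rs8182587 and rs7931298 the Tg and DMSO libraries overlapped.

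Some members were already active in standard culture. With a line at 0.5, drawn after the values were seen, 8 members had that much activity in standard culture, and all 8 had an active allele. In standard culture their median was 0.82, with 0.71 in DMSO and 1.06 in Tg, and the DMSO libraries lay wholly below those of standard culture in rs2301825, rs4771189 and rs35140055. For rs2301825 (chr15:91528070, placed at the RCCD1 locus) the gain was 0.46. The 5 DMSO libraries gave 0.34, 0.18, 0.18, 0.32 and 0.20, the 5 Tg libraries 0.71, 0.61, 0.61, 0.71 and 0.83, and the 5 libraries of standard culture 0.53, 0.59, 0.80, 0.51 and 0.76. The DMSO libraries alone were low, and Tg overlapped standard culture. The same held for rs4771189, whose gain was 0.31, with 0.30 to 0.44 in DMSO, 0.58 to 0.76 in Tg and 0.59 to 0.76 in standard culture. Tg exceeded standard culture in every library in 4 of the 8. The other 50 members numbered 25 deeper and 25 shallow ones, in which the same held for 24 and 3. Since members were split here by the standard culture value that Tg is then set against, nothing is read from these counts.

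The 5 members with the highest activity in standard culture were rs12569872, rs7597825, rs12794698, rs12714223 and rs35140055, with mean activities of 0.95, 0.94, 0.91, 0.85 and 0.79 over both alleles. For rs12569872 edgeR gave a log2 RNA over plasmid of 0.98 (SE 0.032, adjusted p = 4.3e-36) for the reference and 0.90 (SE 0.030, adjusted p = 6.1e-35) for the alternate allele. For rs7597825 it gave 0.94 (SE 0.031, adjusted p = 8.0e-33) and 0.94 (SE 0.032, adjusted p = 6.6e-35), and for rs12794698 0.92 (SE 0.023, adjusted p = 7.2e-42) and 0.88 (SE 0.025, adjusted p = 2.7e-37). The first 3 of the 5 are on the T2D list and also stood just inside the limit on DMSO activity. For rs12714223 and rs35140055 the reference values were 0.82 (SE 0.038, adjusted p = 5.6e-28) and 0.76 (SE 0.030, adjusted p = 3.5e-31). With total-count scaling the calls of both alleles of rs12714223 (0.0077 and 0.054), of both alleles of rs35140055 (-0.050 and -0.016) and of the alternate alleles of rs12569872 (0.088) and rs12794698 (0.070) were lost. The 5 lowest were rs13117737, rs7944584, rs7593730, rs2867800 and rs2641346, with -0.34, -0.26, -0.23, -0.21 and -0.19, and all 5 were shallow.

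Of the study's list of T2D SNPs with an allelic difference, 5 of 213 with enough plasmid counts were members. This list, which is only a part of the T2D SNPs assayed, held 8.62% of members and 3.45% of all 6180 SNPs. Of the caQTL SNPs with an allelic difference, 3 of 389 were members (5.17% of members, 6.29% of all). Both lists were chosen by the study on allelic differences in these libraries and are no independent evidence. The wider set of T2D and related trait SNPs held here, not chosen by allelic difference, included 34.5% of members and 30.4% of all 6180 SNPs. The SNP rs7163757 at chr15:62391608 is intergenic, between C2CD4A and C2CD4B, which are named for their calcium-dependent domain, and is the only member in the table of T2D and related trait SNPs held here with an islet ATAC-seq peak, 1 of 20 members in that table against 146 of its 1877 SNPs with enough counts. Its gain was 0.44. Its DMSO libraries gave -0.026, 0.0082, 0.11, -0.092 and 0.028, the 5 Tg libraries 0.57, 0.51, 0.38, 0.47 and 0.37, and the 5 libraries of standard culture -0.021, -0.052, -0.077, -0.013 and 0.058. The alternate allele gained 0.52 and the reference 0.36. Neither allele was called active in standard culture. The alternate allele had 0.78, 0.70, 0.55, 0.63 and 0.55 in the Tg libraries and the reference 0.35, 0.31, 0.22, 0.31 and 0.20. In DMSO the alternate allele had 0.029, 0.17, 0.25, 0.033 and 0.059 and the reference -0.081, -0.15, -0.035, -0.22 and -0.0034, so that the alleles did not overlap in either condition. In standard culture, where they overlapped, the alternate had -0.0024 and the reference -0.025.

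The other 4 members on the T2D list had both alleles active in standard culture. For rs12569872 the DMSO libraries gave 0.85, 0.72, 0.87, 0.97 and 0.95, the 5 Tg libraries 1.15, 1.22, 1.24, 1.08 and 1.21, and the 5 libraries of standard culture 0.96, 0.93, 0.96, 0.87 and 0.98. All 5 Tg values lay above the others, with a gain of 0.31, while DMSO and standard culture overlapped. For rs12794698, whose sequence is shown above, the DMSO libraries gave 0.81, 0.83, 0.91, 0.92 and 0.92 and the Tg libraries 1.24, 1.24, 1.22, 1.23 and 1.27, a gain of 0.36, beside 0.85 to 0.98 in standard culture. The intergenic SNP rs7597825 at chr2:61870875, between the nuclear export gene XPO1 and FAM161A, a gene of photoreceptor cilia, had 0.98, 0.80, 1.00, 0.92 and 0.98 in DMSO and 1.24, 1.26, 1.29, 1.15 and 1.28 in Tg, a gain of 0.31, beside 0.86 to 1.02 in standard culture. The SNP rs2332541 at chr3:123158158, placed at the locus of the adenylyl cyclase gene ADCY5, gained 0.31, with 0.21 to 0.44 in DMSO, 0.53 to 0.77 in Tg and 0.43 to 0.53 in standard culture, so that Tg overlapped standard culture.

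Allelic effects were tested in standard culture, for the 20 members with an active allele, as the log2 activity of the alternate allele minus that of the reference in each RNA library, with limma at an FDR of 10%. There were 6 effects among these 20, against 41.8% of the 1514 SNPs tested. The largest was at rs2332541, where the alternate allele was higher by 0.17 (SE 0.039, adjusted p = 0.0098). At rs863840 (chr5:56128999, placed at the locus of the kinase gene MAP3K1) the difference was -0.14 (SE 0.056, adjusted p = 0.097), and at rs71304101 (chr3:12396913, placed at the locus of PPARG, the nuclear receptor of adipocyte differentiation) it was -0.097 (SE 0.037, adjusted p = 0.079). At rs73409011 it was -0.088 (SE 0.025, adjusted p = 0.028), at rs72775940 0.082 (SE 0.032, adjusted p = 0.083) and at rs12569872 -0.080 (SE 0.031, adjusted p = 0.087). All 6 were small, and only those of rs2332541 and rs73409011 were kept in the methods' paired test of each SNP alone and with the plasmid libraries as a group of their own, whose error the mean plasmid count leaves out. With RNA library 2, 5 or 6 left out, 3 of the 6 remained, and with library 3 or 4 left out 4 effects were called, 3 of them among the 6.

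At rs72775940 (chr10:11924217) the alleles parted in Tg. The reference allele gained 0.65 and the alternate 0.046, the mean of which, 0.35, made the element a member. In DMSO the 5 libraries gave 0.23, 0.22, 0.10, 0.23 and 0.18 for the reference and 0.32, 0.29, 0.32, 0.24 and 0.25 for the alternate allele. In Tg they gave 1.16, 0.79, 0.61, 0.73 and 0.92 and 0.49, 0.24, 0.36, 0.38 and 0.22. The alternate allele was slightly higher in each DMSO and standard culture library and lower in each Tg library, where the difference averaged -0.50 over the libraries, against 0.089 in DMSO and 0.082 in standard culture, and both alleles had at least 29380 plasmid counts. This difference between conditions was not tested, since the rule used the libraries. Among the 58 members, 56 had a gain above 0 in each allele and 32 a gain of at least 0.3 in each. The exceptions, both shallow, were rs11302897 (reference -0.27, alternate 0.98) and rs7593730 (reference -0.13, alternate 0.81). The former is a GT-to-G deletion at chr3:114871179, placed at the ZBTB20 locus, and the latter is at chr2:161171454, placed at the RBMS1 locus. In size the allelic difference had a median over members of 0.13 in DMSO, 0.13 in Tg and 0.057 in standard culture, against 0.076, 0.088 and 0.046 in weak elements that did not gain. Members were shallower, with a median of 6651.5 counts for the smaller plasmid sum against 10309, and the rule used the DMSO and Tg counts. The groups were not matched for depth, so nothing is read from these medians.

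One member, rs10016433 (chr4:122664771, intergenic between ANXA5 and TMEM155, gain 0.33, 1460 and 1627 plasmid counts), is also in the library as a pair of sequences marked as alternates, which the rule did not read. They are taken here as the same element with another allele at a neighbouring SNP, which the sources used here do not state for this SNP. The alternate version of the reference allele had -0.13, -0.22, -1.06, 0.38 and 0.24 in DMSO and -1.31, -0.88, 0.19, -1.32 and -0.37 in Tg. That of the alternate allele had -0.11, 0.13, 0.29, -0.58 and -0.29 and 0.66, -0.47, -0.12, 0.57 and -0.40. In edgeR's test of Tg against DMSO their log2 changes were -0.51 (SE 0.31, adjusted p = 0.42) and 0.22 (SE 0.24, adjusted p = 0.71). Neither passed the FDR of 1%, which 2.04% of all 13413 sequences did in the upward direction, and neither had an unadjusted p under 0.05 in edgeR or in DESeq2. With SEs of this size, a gain as small as the rule's threshold was not detectable at this depth.

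Overlapping elements of other SNPs were found for 3 members with positions, all shallow, a comparison chosen after the values were seen. For rs10016433 the 4 neighbours rs10005932, rs6846232, rs73844280 and rs73844281, which share 116 to 189 of the 200 bases if each SNP is at the centre of its element, had gains of 0.028, -0.33, 0.11 and 0.0064. For rs7944584 (chr11:47336320), the neighbour rs6485751 would share 78 bases and had 0.11, and for rs9291296 (chr4:46922950) the neighbour rs9291297 would share 42 bases and had -0.080. None of these 6 reached 0.3, and the last 2 share only a minority of their bases with the member. Some members are not separate elements: rs139554326 and 6:38071178:TAC stand for variants of 1 position, chr6:38071178 in an intron of ZFAND3, with gains of 0.53 and 0.42, and both were shallow. In the latter the reference allele gained 0.79 and the alternate 0.053.

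Locus names were held for 22 members at 20 signals. Apart from those given above, they included the GABRA4 signal with rs9291296 and rs1160091 (gains 0.39 and 0.38), the RCCD1 signal with rs2301825 and rs112770790 (gain 0.40), and single members at the loci of the Notch receptor gene NOTCH2 (rs2641346, 0.31), the insulin receptor adaptor gene GRB14 with COBLL1 (rs6717858, 0.31), R3HDML with the lipid droplet gene FITM2 (rs2867800, 0.34), ZC3H11B (rs2785980, 0.42), PCNX2 (rs76181456, 0.31) and HIGD1C (rs75403319, 0.32). Apart from rs2301825 these were all shallow. Of the 10 members with a position class in the tables, 7 were intergenic, 2 lay in introns of noncoding RNA genes and 1 in an intron.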

How the data were processed

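The data are read counts of a massively parallel reporter assay in MIN6 cells, with 5 RNA libraries each of standard culture, DMSO and Tg and 5 plasmid libraries of each plasmid batch. The deposited counts were made by the authors by summing, for each sequence and library, the reads of the barcodes assigned to it. Of tools, the submitters' notes list DESeq2 (no version). Which program counted barcodes was not given in the sources used here, and positions are those of hg19 in the study's tables.

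Counts of the DMSO, Tg and second-batch plasmid libraries came in separate runs, as their labels call them, and were added up by library name. Whether these are sequencing runs of the same libraries was not given in the sources used here. The standard culture table holds 6 numbers of plasmid and RNA libraries. The study's 5 of each were found by comparing 882 column sets with the study's mean counts for 1117 SNPs, and 1 set matched within a relative tolerance of 1e-05. RNA numbers 2, 4 and 6 have a second column that differed from the first by about sampling noise (chi-square per degree of freedom 1.03 to 1.07), and each number was counted as 1 library. Per-sample columns not read number 0.

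Activity per library was log2((RNA + 1)/(mean plasmid count + 1)) minus its median over sequences with at least 500 plasmid counts in all, and the values of a member are means of its alleles. Plasmid error is therefore shared by the libraries of a condition. Sequences averaging 10 or more plasmid counts entered edgeR 4.0.16 (R 4.3.3; quasi-likelihood, TMM, robust, Benjamini-Hochberg FDR of 1%), and SNPs with an active allele entered limma 3.58.1 at an FDR of 10%, each fitted over the whole library and two-sided. DESeq2 1.42.0, total-count scaling, other thresholds, single runs and left-out libraries were alternatives. The steps ran in Python 3.11.15 and were tested on simulated data.

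The members, lists and tests were chosen with earlier results of these data known. Named elements are the 12 largest gains, T2D-list members with a locus, members with sequence at hand, the nearest 3 on each side of each threshold, the 5 highest and lowest in standard culture, members with an allelic effect there and members with alternate-background sequences. Other members, and the splits by depth and by a standard culture activity of 0.5, were chosen after their values were seen. Where the study's tables hold no position for a member, none is given, and the sequence of 1 other member is not reported here. Columns of the authors' own comparisons (fold changes and p-values) in the study's tables were not used.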

Additional observations from a re-analysis of the deposited data

Results flagged for a closer look

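In 7 of 174 sets of 5 libraries (58 members, 3 conditions) the highest or lowest library stood apart from the others by Dixon's criterion for 5 values, and chance gives about 1 in 20 such sets. In DMSO, library 2 was low for rs223829 at -1.24 (next -0.45), and library 3 was high for rs139554326 at 0.26 (next -0.15). In Tg, library 1 was high for rs72775940 at 0.82 (next 0.57), and library 5 was low for rs3753563 at -0.72 (next 0.37). In standard culture, library 6 was high for rs956708 at 0.070 (next -0.0042) and for rs12714223 at 0.97 (next 0.84), and low for rs7931298 at 0.081 (next 0.15). The smaller plasmid sum was 502 counts for rs223829, 753 for rs139554326 and 555 for rs3753563, and at least 4316 for the other 4.

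The alternate minus reference difference of rs72775940 was below 0 in every Tg library, with a mean of -0.50, and above 0 in every library of DMSO (mean 0.089) and of standard culture (mean 0.082). The difference between conditions was not tested.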

How the results depend on the processing

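The number of members followed the thresholds, as their construction sets: 89 with a plasmid minimum of 200, 163 with a gain of 0.2, 31 with a gain of 0.4 and 32 with a gain of 0.3 in each allele. With a library left out it ran from 50 to 65. Members with Tg above standard culture in every library numbered 57 at a gain of 0.2 and 20 at 0.4. With total-count scaling 4 member sequences and 3 members stayed active in standard culture, and the log2 values turned to -0.50 and -0.59 for the alleles of rs175874 and to -0.050 and -0.016 for those of rs35140055, while the members' median minus that of all sequences was 0.044 under both scalings. Active member sequences ran from 35 to 38 and members with an active allele stayed at 20 with a library left out. Allelic effects fell to 2 with the methods' paired test and to 2 with the plasmid libraries as a group, an alternative chosen after seeing the data, and ran from 3 to 4 with a library left out. With all SNPs tested, 5 were called, of which 1 was among the 6. The members' median activity in standard culture ran from 0.028 to 0.052 with a library left out.

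Library numbers are shared between groups, and the study calls its DMSO and Tg replicates paired without tying the numbers to days. Deviations of same-numbered libraries correlated at 0.00065 to 0.0386 for DMSO and Tg and at -0.0465 to 0.0139 for plasmid and RNA of standard culture. The pairing was therefore not seen in these counts, and the block is given as an alternative. With the replicate block, 36 member sequences and 19 members were active in standard culture, and 0 alternate-background sequences changed in Tg. Tg and DMSO libraries overlapped in 20 of the 26 shallow members, and whether depth accounts for this was not tested.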
